A study of Mus musculus with 9 samples.

Results

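The bile acid genes of mouse liver were taken from RNA sequencing of Tet-OFF mice given doxycycline or tetracycline. The 10 genes, chosen by name from the table of normalized counts through their Ensembl identifiers, were Cyp7a1, Cyp8b1, Cyp27a1, Baat, Slc27a5, Nr1h4, Nr0b2, Slc10a1, Abcb11 and Slc51b, out of 32285 rows. All 10 passed the filter of a mean of at least 10 normalized counts, as did 12100 genes in all. By the study's methods, Tet-OFF mice carried a piggyBac CAG-CreERT2 allele, an LSL-tTA allele at Rosa26 and a tetO-Venus-ires-mCherry allele. The CAG promoter thus drove the Cre recombinase in cells of all kinds, and tTA, a transactivator that tetracyclines switch off, was expressed after removal of a stop cassette. Mice of all 3 groups had received tamoxifen, which activates this Cre. The control group received nothing else by the labels, the Dox group also received doxycycline hyclate and the Tc group also received tetracycline hydrochloride. Both drugs were given to males of 4 weeks of age at 2 mg/mL in sweetened drinking water for 7 days. Each group had 3 libraries. Whether the water of the controls held sucrose, and the hour at which livers were collected, are not given in the sources used here. Since every drug-treated mouse carried the switched transgene, an effect of a drug and an effect of switching off the reporter cannot be told apart.

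Bile acids are made from cholesterol in hepatocytes. In the classic pathway CYP7A1 hydroxylates cholesterol in the rate-limiting step, and CYP8B1 directs the product towards cholic acid, while in the acidic pathway CYP27A1 oxidizes the side chain first. SLC27A5 and BAAT join the acids to an amino acid, in mice mostly taurine, ABCB11 (the bile salt export pump) moves them into the canaliculus, and SLC10A1 (NTCP) takes them back from portal blood. NR1H4 (FXR) is the nuclear receptor that senses bile acids. Its target NR0B2 (SHP) represses Cyp7a1 and Cyp8b1, and the ileal hormone FGF15 does so from the gut. Gut bacteria alter bile acids, which is why antibiotics are of interest for these genes.

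Certain features of the libraries touch every result below. In every group the third library could be written as a mixture of libraries 1 and 2, with fitted weights of 58.6% and 41.5% in the controls, 61.3% and 34.5% with Dox, and 61.3% and 36.8% with Tc. Among genes that differed more than 2-fold between libraries 1 and 2, library 3 lay between them for 201 of 207 in the controls, 3010 of 3025 with Dox and 483 of 488 with Tc. P-values from all 9 libraries are therefore too small, and values without library 3 of each group are given beside them. P-values are too small as well in fits that leave out only library 1 or 2 of a group, since library 3 still carries part of both. Dox library 2 stood apart from the other libraries. Pdk4, a fasting gene, was at 1824.4 normalized counts there and at 681.8 or below elsewhere, and Tat, an amino acid enzyme induced by glucocorticoids, was at 159363.9 against 63626.8 or below. Reads on genes ranged from 7426136 to 12183041 per library. All 7 hepatocyte markers were present in every library. Of 5 small intestine markers only Cdx1 was at 0 throughout, and their summed level was 78.3 to 155.7 normalized counts in the controls, 41.4 to 279.0 with Dox and 143.9 to 171.8 with Tc, mostly from Fabp2. Their part in the results was not tested.

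In the controls, the level per kilobase of exon was highest for Slc27a5, with a mean of 4189.0 normalized counts per kb, and fell in steps to 16.6 for Slc51b. Slc10a1 followed at 2495.8, then Cyp27a1 at 1558.8, Abcb11 at 1317.8, Baat at 948.8, Cyp8b1 at 707.7, Nr1h4 at 637.5, Cyp7a1 at 317.8 and Nr0b2 at 115.8 normalized counts per kb. Neighbours in this order did not overlap over the 3 control libraries, except Cyp27a1 (1529.6 to 1594.9) and Abcb11 (1103.4 to 1561.5). The main transporters and the conjugating enzymes were thus more abundant per length than Cyp7a1, whose control libraries ranged from 188.4 to 443.3 per kb.

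Sequence upstream of the start was in the RefSeq promoter table (build GRCm38.p6) for 7 of the 10 genes. Shown are the 250 bases before the start of Cyp8b1 and Nr0b2, which were above the controls in every Dox library, and of Abcb11, the exporter, and the 109 bases between the start sites of Abcg5 and Abcg8, a divergent pair described further on. Each reads 5′ to 3′ on the gene's strand (for the pair, on the strand of Abcg8), and capitals mark matches to motifs searched on both strands. None overlaps an annotated exon.

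Cyp8b1 (chr9:121916306-121916555, minus strand): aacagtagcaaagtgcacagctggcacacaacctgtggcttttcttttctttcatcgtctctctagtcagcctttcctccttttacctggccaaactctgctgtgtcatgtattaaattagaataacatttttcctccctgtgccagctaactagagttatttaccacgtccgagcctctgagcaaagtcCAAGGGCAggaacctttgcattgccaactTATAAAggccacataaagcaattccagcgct

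Nr0b2 (chr4:133553126-133553375, plus strand): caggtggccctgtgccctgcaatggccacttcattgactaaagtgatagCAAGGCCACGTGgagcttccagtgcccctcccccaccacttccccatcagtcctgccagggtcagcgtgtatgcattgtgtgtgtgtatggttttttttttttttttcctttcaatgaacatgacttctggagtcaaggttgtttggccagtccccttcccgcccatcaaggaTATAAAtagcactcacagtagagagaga

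Abcb11 (chr2:69342617-69342866, minus strand): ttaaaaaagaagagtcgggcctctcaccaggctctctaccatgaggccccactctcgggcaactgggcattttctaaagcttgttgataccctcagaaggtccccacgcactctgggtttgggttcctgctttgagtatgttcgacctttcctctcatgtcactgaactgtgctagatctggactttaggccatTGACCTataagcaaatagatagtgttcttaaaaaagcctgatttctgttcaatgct

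Abcg5 and Abcg8 (chr17:84683012-84683120, plus strand): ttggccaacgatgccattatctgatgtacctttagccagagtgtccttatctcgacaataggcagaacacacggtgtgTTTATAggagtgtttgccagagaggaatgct

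The letters CAAGGNCA, an element read by NR5A receptors such as NR5A2 (LRH-1), occurred in Cyp8b1 from −60 to −53 and in Nr0b2 from −201 to −194, counted back from the start site. They occurred in 5.53% of the 32851 promoter windows. Cyp27a1, which was also above the controls in every Dox library, held no match to these letters in its window. In Nr0b2 the match runs into an E-box, CACGTG (−195 to −190, in 6.02% of windows). AGGTCA, a core element of many nuclear receptor sites, was found in Abcb11 on the opposite strand from −56 to −51 and in 14.0% of windows. Among the genes not printed it was also found in Nr1h4 (−214 to −209, opposite strand), Slc10a1 (−87 to −82) and Slc51b (−203 to −198). Cyp8b1 and Nr0b2 held TATAAA within 31 bases of the start, and the segment between Abcg5 and Abcg8 held it on the opposite strand, from −31 to −26 counted from the Abcg8 start (12.4% of windows). These matches are descriptions of letters and not of bound sites.

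Cyp7a1 (ENSMUSG00000028240, chr4:6265612-6275633 in GRCm38) differed most between the drugs. Its normalized counts were 1850.3, 786.5 and 1342.6 in control libraries 1 to 3, 945.6, 131.1 and 640.5 with Dox, and 3308.4, 3965.7 and 2877.9 with Tc. All Tc libraries were above all others, and the Dox libraries were below the Tc libraries but overlapped the controls. The Dox mean was 572.4 ± 411.5 (SD, n = 3), the control mean 1326.5 and the Tc mean 3384.0.

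Cyp8b1 (ENSMUSG00000050445, chr9:121914356-121916305) did not follow Cyp7a1. It was at 1370.8, 1332.3 and 1436.7 normalized counts in the controls, 2675.6, 1665.6 and 2215.3 with Dox, and 2019.4, 1284.1 and 1729.9 with Tc. The Dox libraries were all above the controls, and the Tc libraries overlapped both groups.

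Cyp27a1 (ENSMUSG00000026170, chr1:74713574-74737892), of the acidic pathway, was at 3372.5, 3323.8 and 3465.8 normalized counts in the controls, at 4484.7, 5412.2 and 4561.7 with Dox and at 4299.6, 3096.2 and 3827.0 with Tc. The Dox libraries were above those of both other groups without overlap.

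The conjugating enzymes overlapped between all groups. Baat (ENSMUSG00000039653, chr4:49489422-49506557) was at 1817.5, 1736.7 and 1970.6 normalized counts in the controls, 2367.1, 645.3 and 1703.3 with Dox, and 2191.3, 1777.8 and 1791.4 with Tc. Slc27a5 (ENSMUSG00000030382, chr7:12988346-12998192), the bile acid CoA ligase, was at 11798.3, 8240.9 and 10599.5 in the controls, 9860.1, 5929.8 and 8043.9 with Dox, and 10193.8, 9780.4 and 10287.7 with Tc. For both enzymes Dox library 2 was the lowest of the 9.

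The receptor and its target stood on opposite sides of the controls in the Dox libraries. Nr1h4 (ENSMUSG00000047638, chr10:89454234-89533585) was at 1418.4, 1524.3 and 1462.1 normalized counts in the controls, 1153.0, 679.8 and 964.2 with Dox, and 1304.6, 1282.3 and 1219.5 with Tc. The 3 groups did not overlap, with the controls highest and Dox lowest. Nr0b2 (ENSMUSG00000037583, chr4:133553376-133556536) was at 112.2, 142.4 and 138.6 in the controls, 176.9, 484.3 and 279.8 with Dox, and 20.5, 277.9 and 127.2 with Tc. The Dox libraries were above the controls, while the Tc libraries spanned both groups.

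The main uptake transporter and the canalicular exporter varied most within the Dox group. Slc10a1 (ENSMUSG00000021135, chr12:80953183-80968705) was at 5152.9, 5301.1 and 6011.1 normalized counts in the controls, 6031.5, 2285.6 and 4420.9 with Dox, and 7433.2, 5349.7 and 5497.1 with Tc. Abcb11 (ENSMUSG00000027048, chr2:69238282-69342616) was at 8035.3, 5678.0 and 6631.5 in the controls, 8546.0, 2890.7 and 6138.3 with Dox, and 7062.1, 5700.4 and 6532.2 with Tc. Abcb11 thus had both its highest and its lowest library within the Dox group. Slc51b (ENSMUSG00000053862, chr9:65412714-65422955), which encodes the beta subunit of the sinusoidal exporter, rested on only 5 to 30 reads per library. It was at 13.8, 8.8 and 12.7 normalized counts in the controls, 6.3, 13.8 and 4.4 with Dox, and 4.9, 27.0 and 5.9 with Tc, and the groups overlapped.

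**Figure D1:**
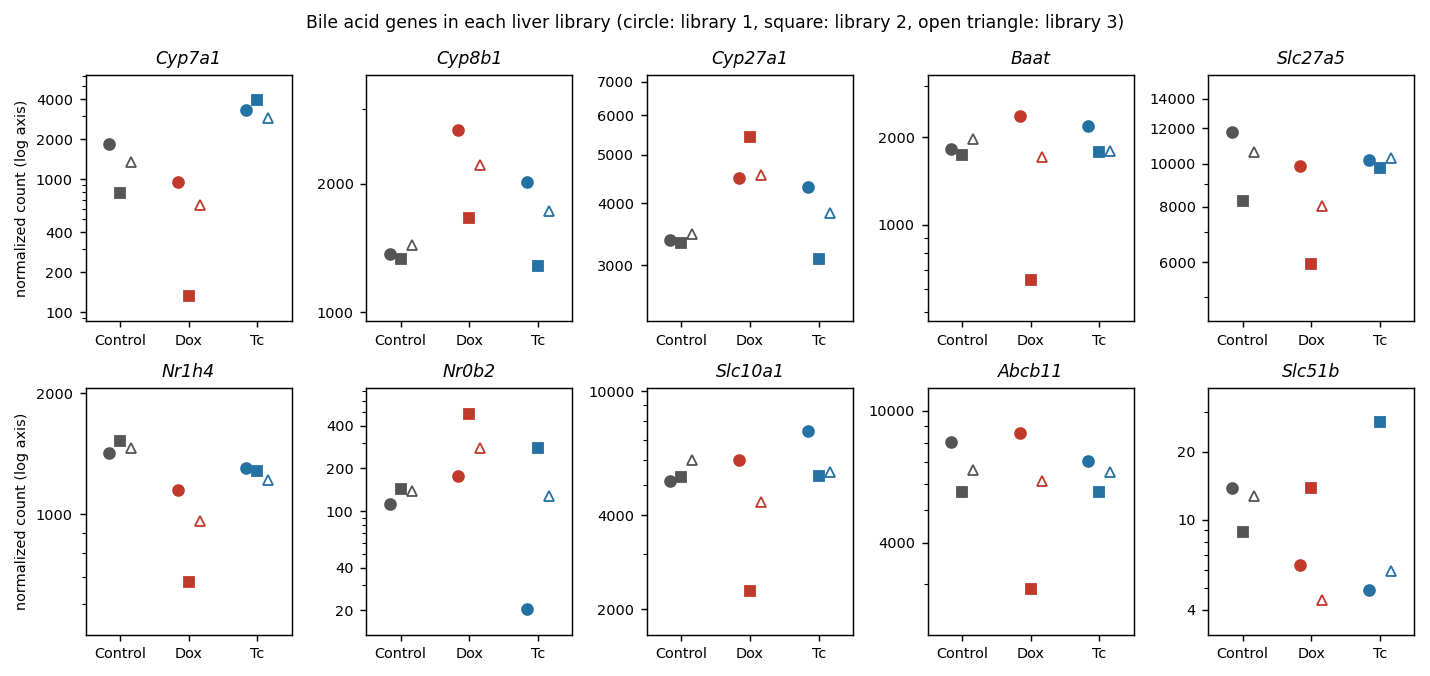
Normalized counts (log axis) of the 10 bile acid genes in each library of the control, Dox and Tc groups, with library 3 of each group as an open triangle. Cyp7a1 in the Tc libraries (2877.9 to 3965.7) lies above all others, and Dox library 2 (red square) is the lowest of the 9 libraries for 6 of the 10 genes.

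Dox library 2 was the lowest of all 9 libraries for Cyp7a1, Baat, Slc27a5, Nr1h4, Slc10a1 and Abcb11, 6 of 10 genes, and the highest for Cyp27a1 and Nr0b2. Over all genes tested, this library was the lowest for 32.1% and the highest for 33.4%. The median gap between libraries 1 and 2 over the 10 genes was 1.21 on the log2 scale with Dox, 0.39 with Tc and 0.22 in the controls, against 0.70, 0.26 and 0.22 over all genes tested. It was over 1 for 6 of the 10 genes with Dox, 2 with Tc and 1 in the controls. In bulk tissue, fewer cells of a type and less RNA per cell cannot be told apart.

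Against the controls, the Dox libraries had lower Nr1h4 and higher Cyp8b1 and Cyp27a1, with 1.4-fold to 1.6-fold differences, and a Cyp7a1 mean of 0.43 times the control mean. With limma none of these passed the threshold. The log2 fold change was −0.69 for Nr1h4 (standard error 0.18, limma adjusted p = 0.0529), 0.64 for Cyp8b1 (0.21, adjusted p = 0.097), 0.50 for Cyp27a1 (0.16, adjusted p = 0.0828) and −1.54 for Cyp7a1 (0.65, adjusted p = 0.161). For Nr0b2 it was 1.14 (0.81, adjusted p = 0.375). The other 5 genes had log2 fold changes from −0.59 to −0.33 and adjusted p of at least 0.299. With limma, 0 of the 10 genes passed a fold change over 2 and an adjusted p under 0.05, where 5.00% of all genes tested did, and 4 had an unadjusted p under 0.05 (Cyp7a1, Cyp8b1, Cyp27a1 and Nr1h4), where 29.1% did. DESeq2 on the recovered reads and edgeR also called 0 (8.71% and 5.52% of genes), with 4 and 3 genes at an unadjusted p under 0.05 (21.0% and 30.4%). In DESeq2 the adjusted p was 0.0146 for Nr1h4, 0.0188 for Cyp27a1 and 0.0376 for Cyp8b1, and only the fold limit kept these from a call. The groups did not overlap for 4 genes (Cyp8b1, Cyp27a1, Nr0b2 and Nr1h4), where 33.3% of genes did not.

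Without libraries 3, limma called 0 of the 10 genes and 0 of all 12100 (0.00%), with 0 of 10 at an unadjusted p under 0.05 (8.60% of all genes). The log2 fold changes were then −0.73 for Nr1h4, 0.64 for Cyp8b1, 0.56 for Cyp27a1 and −1.77 for Cyp7a1. The Cyp7a1 value rested on Dox library 2. Without it the log2 fold change was −0.68 (adjusted p = 0.17), with 9.11% of all genes called, and without Dox library 1 it was −2.10 and passed the threshold (12.4% called). Limma with weights that count variable libraries less called 3 genes, Cyp7a1, Nr0b2 and Slc51b, where 12.9% of all genes were called.

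Against the same controls, Cyp7a1 had the largest difference of the 10 genes with Tc. Its Tc mean was 2.55 times the control mean, and the log2 fold change was 1.42 (standard error 0.65, 95% interval −0.06 to 2.91, limma adjusted p = 0.449). For the other 9 genes it lay between −0.52 (Nr0b2) and 0.26 (Cyp8b1). Limma called 0 of 10 genes, where 0.165% of all genes were called, and 0 had an unadjusted p under 0.05, where 11.7% did. DESeq2 and edgeR called 0 as well (1.28% and 0.174% of genes), each with Cyp7a1 at an unadjusted p under 0.05 (8.83% and 12.3%). The groups did not overlap for Cyp7a1 and Nr1h4, where 30.7% of genes did not.

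Since all groups shared 1 estimate of the spread, the variable Dox libraries entered this test too. With only the control and Tc groups in the fit, limma called Cyp7a1 (2.28% of all genes), as it did with array weights (6.09%). Limma also called it without Dox library 2 (1.83% of genes called). There the log2 fold change was again 1.42, but the standard error was 0.29 and the limma adjusted p = 0.0302. These fits kept libraries 3, so their p-values are too small too. Without libraries 3 the log2 fold change was 1.59 (standard error 0.95, adjusted p = 1), and limma had 0 of 10 genes at an unadjusted p under 0.05 (1.98% of all genes) and called 0 of all 12100. DESeq2 without libraries 3 gave 1.46 (adjusted p = 1).

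Doxycycline and tetracycline are isomers that carry a hydroxyl group on neighbouring carbons of the same ring system, and they were given at the same concentration for the same time. This is the only pair of compounds in the series, and both comparisons above used the same control libraries. Cyp7a1 was lower with Dox than with Tc, at 0.17 times its mean, with no overlap between libraries. The log2 difference was −2.96 (standard error 0.65, 95% interval −4.45 to −1.47, limma adjusted p = 0.0957). Without libraries 3 it was −3.36 (interval −5.71 to −1, unadjusted p = 0.0136 in limma, adjusted p = 0.755). It was the only gene of the 10 with an unadjusted p under 0.05 in that fit (3.75% of all genes), which called 0 of all 12100 genes.

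Limma called 0 of 10 genes in this comparison (0.215% of all genes). At an unadjusted p under 0.05 it had 3, Cyp7a1, Cyp27a1 and Nr1h4, where 21.7% of genes had one. DESeq2 called Cyp7a1 with all 9 libraries, with a log2 difference of −2.56 (adjusted p = 7.48e-04, 4.53% of genes called and 16.4% at an unadjusted p under 0.05), and not without libraries 3, where it was −2.76 (adjusted p = 0.171, 0.266% called). EdgeR called 0 of 10 genes (0.00% of all genes), with Cyp7a1 and Nr1h4 at an unadjusted p under 0.05 (23.6%). In limma, leaving out Dox library 2 gave −2.11 (adjusted p = 0.0157) and a call (1.48% of genes), as did leaving out Dox library 1 (11.3%). Array weights gave calls for Cyp7a1 and Nr0b2 (8.85%). The direction held for every library left out (−3.53 to −2.11).

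For the other genes the interval of the Dox minus Tc difference included 0, or ended close to it. Cyp27a1 was 0.37 higher on the log2 scale with Dox (0.01 to 0.74) and Nr1h4 0.48 lower (−0.89 to −0.06), and both groups were free of overlap, as in 24.6% of all genes. The intervals were −0.11 to 0.87 for Cyp8b1, −0.18 to 3.50 for Nr0b2, −1.36 to 0.13 for Slc10a1, −1.08 to 0.55 for Abcb11, −1.39 to 0.44 for Baat, −0.89 to 0.14 for Slc27a5 and −1.80 to 1.16 for Slc51b. Differences of more than 2-fold thus remained within the interval for Nr0b2, Slc10a1, Abcb11, Baat and Slc51b.

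**Figure D2:**
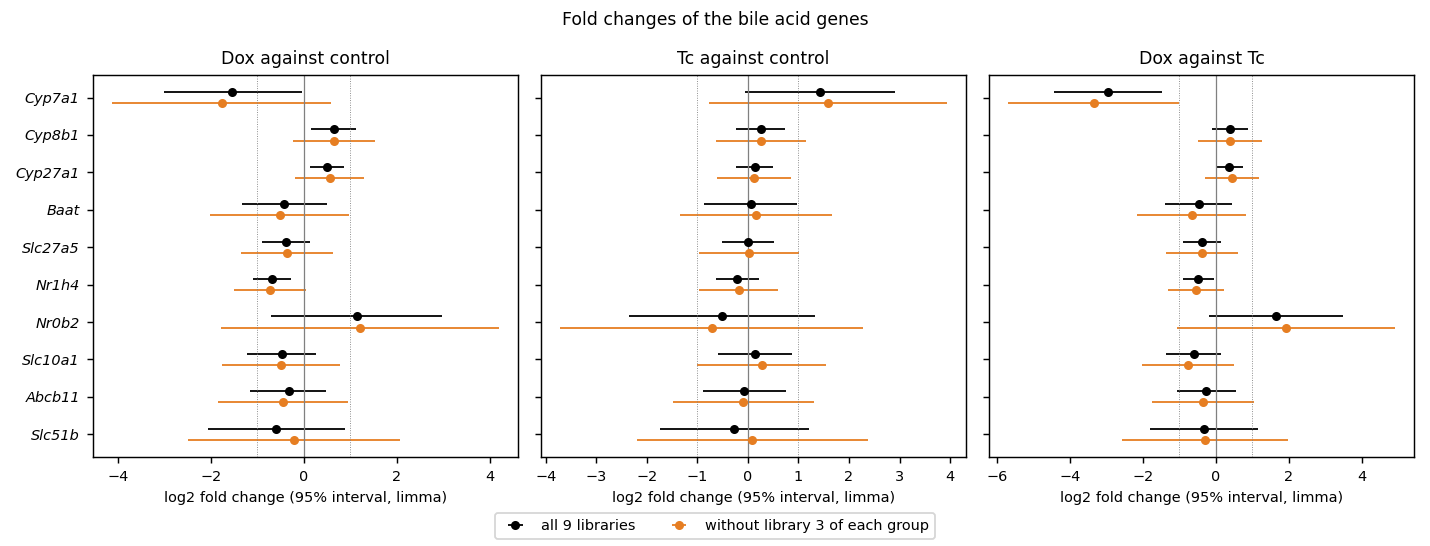
Log2 fold changes (horizontal axis) with 95% intervals from limma for the 10 bile acid genes in each comparison, with all 9 libraries (black) and without library 3 of each group (orange); dotted lines mark a 2-fold difference. Cyp7a1 lies at −1.54 with Dox, 1.42 with Tc and −2.96 between the drugs, while with all 9 libraries Slc10a1 and Abcb11 stay within 0.61 of 0.

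Synthesis was next set beside uptake and export. Within a library, the level of Cyp7a1 per kb divided by that of Abcb11 does not depend on the scaling of the library. This ratio was 0.284, 0.171 and 0.25 in the controls, 0.136, 0.0559 and 0.129 with Dox, and 0.578, 0.858 and 0.543 with Tc. The 3 groups did not overlap, with Dox lowest and Tc highest. Relative to Slc10a1, Cyp7a1 was at 0.189, 0.0782 and 0.118 in the controls, 0.0826, 0.0302 and 0.0763 with Dox, and 0.234, 0.391 and 0.276 with Tc. Here Dox and control overlapped.

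The 2 enzymes of the classic pathway were also set beside each other. Cyp7a1 relative to Cyp8b1 was at 0.631, 0.276 and 0.437 in the controls, 0.165, 0.0368 and 0.135 with Dox, and 0.765, 1.44 and 0.777 with Tc, without overlap. Uptake relative to export (Slc10a1 over Abcb11) was between 1.5 and 2.18 in the controls, 1.65 and 1.85 with Dox, and 1.97 and 2.46 with Tc. These ranges overlapped between Dox and control and between Tc and control, but not between Dox and Tc. The ratios are descriptions with no test.

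A list of 45 further genes of bile acid synthesis, transport and control was read in the same fits, and 39 passed the filter. Ch25h, Slc51a, Vdr, Gpbar1, Fgf15 and Fabp6 did not. Fgf15, the ileal hormone, Fabp6, the ileal bile acid binding protein, and Gpbar1, a membrane receptor, were at 0 in every library. Slc51a, which encodes the partner subunit of Slc51b, did not exceed 1.8 normalized counts.

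With Dox, limma called 3 of the 39 genes, Abcg5, Abcg8 and Ephx1, all higher (background 5.00%), and 36 did not pass. ABCG5 and ABCG8 form the canalicular cholesterol exporter. Abcg5 (chr17:84658234-84683011) was at 597.0, 370.7 and 534.0 normalized counts in the controls, 1473.1, 1463.2 and 1512.3 with Dox, and 1097.6, 794.9 and 950.0 with Tc. Abcg8 (chr17:84676302-84700333) was at 690.2, 458.3 and 605.2 in the controls, 2208.1, 2208.6 and 2225.9 with Dox, and 1828.0, 1019.8 and 1468.8 with Tc. For both genes the Dox libraries, library 2 included, lay within a narrow range above all Tc libraries, and these above all controls. The annotated intervals of the pair overlap on opposite strands, so their counts are uncertain to that extent, and the segment printed above lies between the start sites of the promoter table, within the longer interval of Abcg8.

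Abcg5 rose by a log2 fold change of 1.59 with Dox (standard error 0.19, limma adjusted p = 0.00744) and Abcg8 by 1.94 (0.23, adjusted p = 0.0067). Without libraries 3 both kept their size (1.64 and 1.97), with an adjusted p of 0.559 in limma and a call in DESeq2 (adjusted p = 0.0154 and 0.00439). With Tc the log2 fold changes were 0.94 (0.19, adjusted p = 0.133) and 1.28 (0.23, adjusted p = 0.081). The difference between Dox and Tc was 0.66 for each gene on the log2 scale (adjusted p = 0.14 and 0.168 in limma) and was not called.

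Ephx1, the microsomal epoxide hydrolase, which has also been linked to bile acid uptake, was at 500.7, 978.5 and 738.7 normalized counts in the controls, 6141.0, 1279.1 and 4225.6 with Dox, and 3357.2, 1571.0 and 2793.6 with Tc. Both drug groups were above the controls without overlap, and Dox library 2 was nearest to them. Its log2 fold change with Dox was 2.17 (standard error 0.56, limma adjusted p = 0.049), and without libraries 3 it was 2.00 (adjusted p = 0.573) and was not called by DESeq2 (adjusted p = 0.149). The call with Dox stood close to the threshold. It was lost with the replicate block (adjusted p = 0.0614), with only the 2 groups (0.104) and without any 1 control or Tc library or Dox library 3 (0.0587 to 0.152). With Tc the log2 fold change was 1.78 (adjusted p = 0.295), and without Dox library 2 this passed (adjusted p = 0.0185).

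**Figure D3:**
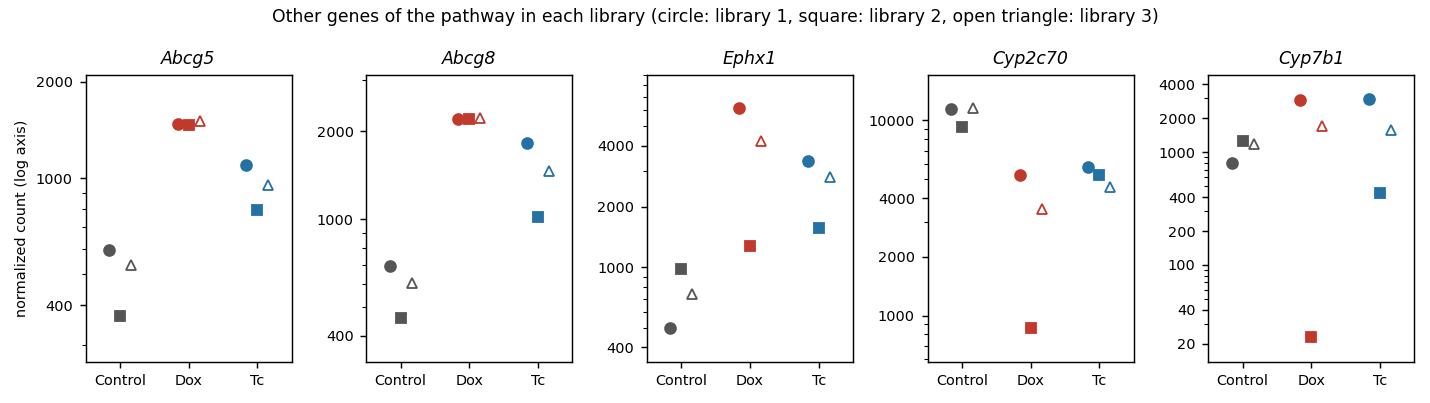
Normalized counts (log axis) of Abcg5, Abcg8, Ephx1, Cyp2c70 and Cyp7b1 in each library of the control, Dox and Tc groups, with library 3 as an open triangle. The Dox libraries of Abcg5 lie between 1463.2 and 1512.3, while those of Cyp7b1 range from 23.0 to 2881.0.

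With Tc, limma called 0 of the 39 genes (background 0.165%), and between Dox and Tc 0 (0.215%). The groups did not overlap for 11 of the 39 genes with Dox, where 33.3% of all genes did not. With Tc this held for 17 (30.7% of all genes) and between the drugs for 8 (24.6%). DESeq2 with all 9 libraries, which gave a p-value for 42 of the listed genes, called 7 with Dox (8.71% of all genes), 2 with Tc (Abcg8 and Ephx1, 1.28%) and 1 between the drugs (Abcc4, 4.53%). Without libraries 3 it called Abcg5 and Abcg8 with Dox (0.882% of all genes), none of the listed genes with Tc (0.0291%) and none between the drugs (0.266%).

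Of the listed genes of the classic pathway beyond the 10, Cyp2c70, which makes the muricholic acids of rodents, had the largest difference with either drug. It was at 11382.3, 9292.8 and 11608.9 normalized counts in the controls, 5242.8, 858.1 and 3535.9 with Dox, and 5788.8, 5247.2 and 4575.8 with Tc. Both drug groups were below the controls without overlap. The log2 fold change was −2.09 with Dox (standard error 0.56, limma adjusted p = 0.0545) and −1.05 with Tc (0.56, adjusted p = 0.524). DESeq2 called it with Dox (−1.74, adjusted p = 0.00732) and not without libraries 3 (−1.76, adjusted p = 0.368). Limma called it without Dox library 2, at −1.31 with Dox (adjusted p = 0.00481) and −1.05 with Tc (adjusted p = 0.0163), and over the libraries left out the Dox value ranged from −2.62 to −1.31. It shares a gene family with close relatives, so its counts are uncertain to that extent.

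In the acidic pathway, Cyp7b1, the oxysterol hydroxylase, ranged from 23.0 normalized counts in Dox library 2 to 2881.0 in Dox library 1. Its log2 fold change with Dox was −1.12 (standard error 1.59) in limma and 0.50 in DESeq2, so no direction can be given. For Cyp46a1, a cholesterol hydroxylase mainly of the brain, it was −0.85 with Tc (adjusted p = 0.739). Among the genes of side-chain shortening, Abcd3, a peroxisomal transporter, had a log2 fold change of 0.52 with Dox (adjusted p = 0.387) and Scp2, a peroxisomal thiolase and sterol carrier, one of 0.77 with Tc (adjusted p = 0.78). Without Dox library 2, Abcd3 was at 1.02 with Dox and was called (adjusted p = 0.0048), and Scp2 was at 1.27 (adjusted p = 0.0785).

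Among sinusoidal exporters, Abcc4 was at 61.1, 498.1 and 190.0 normalized counts with Dox against 70.9, 77.0 and 87.7 in the controls, a log2 fold change of 1.19 (adjusted p = 0.232). Abcc3 had −0.38 with Tc (adjusted p = 0.457). Among regulators, Klb, the co-receptor for FGF15, had a log2 fold change of −0.65 with Dox (standard error 0.14, limma adjusted p = 0.0323, below the fold limit). Nr1i3, the receptor CAR, had 0.89 with Tc (0.23, adjusted p = 0.201). Slc10a2, the ileal uptake transporter that cholangiocytes also make, had −0.89 with Dox and −0.77 with Tc (adjusted p = 0.54 and 0.811).

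Over all listed genes that were tested, the 10 included, the median log2 fold change with Dox was −0.77 for the 6 genes of the classic pathway, −0.34 for the 9 of side-chain shortening and conjugation, −0.64 for the 6 of sinusoidal uptake, 0.30 for the 8 of canalicular export and 0.41 for the 3 of sinusoidal export. It was 0.00 over all genes tested and −0.40 over the 10 genes. With Tc the medians were 0.21, 0.06, 0.18, 0.44 and −0.27 in the same order, 0.00 over all genes and 0.03 over the 10 genes. Several Dox medians moved with the Dox libraries left out. Without Dox library 2 they were −0.33 for the classic pathway, −0.04 for side-chain shortening and conjugation, 0.18 for uptake, 0.53 for canalicular export and 0.25 for sinusoidal export, and 0.01 over the 10 genes. DESeq2 with all 9 libraries gave −0.58, −0.23, 0.84, 0.44 and 0.42, so no direction can be given for uptake with Dox. Without Dox library 1 the limma medians were −1.21 for the classic pathway, −0.99 for uptake and 0.50 for canalicular export. Of the 6 classic pathway genes, 5 had a negative log2 fold change with Dox in limma, and 4 in DESeq2 and without Dox library 2. The gene that turned was Akr1c6, a steroid dehydrogenase, named after its values were seen, which was at −0.21 in limma, 0.58 in DESeq2 and 1.07 without Dox library 2 (adjusted p = 0.0321, called). Within canalicular export the median with Dox lay between Abcb4 (0.03) and Abcc2 (0.58, adjusted p = 0.128 in limma). Abcb11 was below it (−0.33), and Abcg5, Abcg8 and Abcg2 had the largest values. Without libraries 3 the Dox medians were −0.84 for the classic pathway, −0.71 for uptake and 0.30 for canalicular export.

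**Figure D4:**
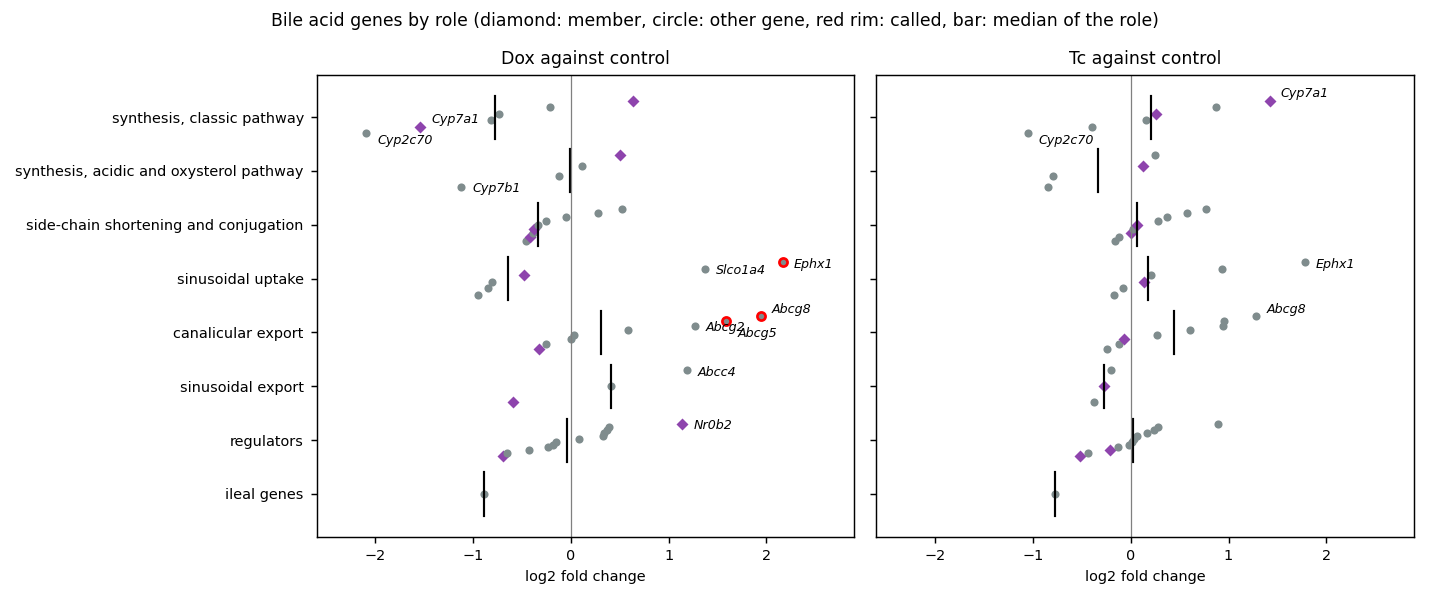
Log2 fold changes with Dox and with Tc against the same controls for bile acid genes in 8 roles; diamonds are the 10 genes, circles the other listed genes, a red rim marks a gene called by limma and a black bar the median of the role. With Dox the classic pathway has a median of −0.77 (−0.33 without Dox library 2) and canalicular export of 0.30 (0.53), and the called genes are Abcg5, Abcg8 and Ephx1.

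Scaling every library to the same total shifted the median log2 fold change of all genes tested to 0.17 with Dox against control and 0.16 for Dox against Tc. Called genes over the whole table with Dox were then 245 higher and 326 lower, against 138 and 467. No direction of the 10 genes turned under this scaling.

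The genes with the pattern most like that of Cyp7a1, by the root mean square difference of centred log2 values over the 9 libraries, were Rnf186 (0.37), Tlcd2 (0.42) and Cyp51 (0.45), out of 9378 genes with a mean of at least 50, whose median was 1.46. Cyp51, a cholesterol synthesis enzyme, was at 602.3, 607.8 and 597.5 normalized counts in the controls, 587.6, 93.2 and 412.6 with Dox, and 990.2, 2069.2 and 1441.0 with Tc. As for Cyp7a1, Dox library 2 was the lowest of the 9 for Rnf186, Tlcd2 and Cyp51. The highest was Tc library 2 for Cyp51, but Tc library 3 for Rnf186 (101.9) and Tlcd2 (1081.4). These genes were chosen for likeness over the same libraries, so a shared pattern follows from the choice.

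Other gene lists moved with the groups and their part in the results was not tested. Over all 12100 genes tested, limma called 138 higher and 467 lower with Dox, and 5 higher and 15 lower with Tc. Of 14 clock genes, 13 were tested, and 1 was called higher for each drug. The summed level of the list was 5465.6 to 7198.0 normalized counts in the controls, 9587.8 to 10422.4 with Dox and 8805.6 to 9347.2 with Tc. This sum pools genes that moved in different directions. With Tc, Arntl (5.9 to 12.6 against 37.0 to 62.8) and Clock (364.2 to 453.2 against 606.0 to 636.2) were below the controls, while Tef and Per2 were above. Dbp, a clock output factor known to act on Cyp7a1, was at 911.4, 466.2 and 743.8 in the controls, 1745.8, 223.2 and 1113.8 with Dox, and 1673.7, 1511.7 and 1669.3 with Tc. Of 10 acute phase genes, 7 were called lower with Dox and none with Tc. DESeq2 without libraries 3 called 4 of them with Dox (0.882% of all genes). Summed levels of the 6 Kupffer cell markers were 6323.6 to 10371.2 in the controls, 1761.6 to 4486.2 with Dox and 2996.9 to 5979.2 with Tc (2 called lower with Dox). For the 7 hepatocyte markers, which include Alb, sums were 1211640.9 to 1718415.2, 628337.2 to 960096.6 and 949244.2 to 1411430.0, with none called. Alb made up most of the sum in every library but Dox library 2, where Tat and Cps1 were at their highest. Of the 7 cholangiocyte markers only 3 were tested, with sums of 206.0 to 244.5, 148.4 to 379.1 and 259.8 to 338.1, and 1 was called higher with Dox.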

How the data were processed

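Liver RNA was sequenced in 9 libraries, 3 groups of 3 (Control, Dox, Tc). The authors trimmed reads with cutadapt, aligned them to mm10 with STAR, counted uniquely mapped reads per gene with HTSeq 2.0.5 and deposited a signal in normalized counts, that is reads divided by a DESeq2 1.42.0 size factor. Multimapping reads of close paralogs are thereby lost. Different RNA kits are named in the sources. Here, log2(normalized count + 1) was tested with limma 3.58.1 (trend) in R 4.3.3, in 1 model of all 9 libraries, and p-values were adjusted by Benjamini-Hochberg over the 12100 genes whose mean reached 10. A gene was called at a fold change over 2 and an adjusted p under 0.05. Fold changes are on this scale and understate those of low genes. Whole reads were recovered for 100% of values (tolerance 0.05 reads) and given to DESeq2 1.42.0, and to edgeR 4.0.16. Each test was run on simulated counts of independent libraries, with the same dispersion for every gene, no mixture and no outlying library. That check cannot show the error rates of the tests for libraries such as these.

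Depth was 7426136 to 12183041 reads per library. Nothing shows that libraries of a group came from separate mice beyond the study's wording, so p-values measure the spread between libraries. Dox and Tc libraries of the same number deviated together (r = 0.29, 0.32 and 0.18), by the numbers in the sample labels, and control libraries paired with neither (−0.08 to 0.06). The genes and lists were chosen with earlier results of these data known. Named were the 10 genes, other listed genes called by limma or by DESeq2 without libraries 3, and the largest difference per role and drug. Names matched 32158 identifiers. Exon lengths are from GENCODE M21. Alternatives covered pseudocount, filter, scaling, groups fitted, weights, block, test, fold limit and libraries left out.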

Additional observations from a re-analysis of the deposited data

How the results depend on the processing

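With all 9 libraries, the 10 bile acid genes had 0 calls in each comparison in limma. The alternatives that gave calls were array weights (3 with Dox, 1 with Tc and 2 for Dox against Tc), only the 2 groups compared (1 with Tc, Cyp7a1) and DESeq2 on recovered reads (1 for Dox against Tc, Cyp7a1). Leaving out a library gave 0 to 1 call in each comparison, always Cyp7a1. Calls came without Dox library 1 or 2. Of the other listed genes, 3 were called with Dox. Without a fold limit there were 5, with array weights 8, with DESeq2 7 and without libraries 3 in limma 0, and leaving out a library gave 2 to 7. With Tc, 3 were called with only the 2 groups, 3 with array weights and 2 with DESeq2 (0 to 3 over libraries left out). For Dox against Tc, array weights gave 4 and DESeq2 1 (0 to 4 over libraries left out). For Dox, Tc and Dox against Tc, the shares of all genes called were 5.00%, 0.165% and 0.215% in limma. They were 12.9%, 6.09% and 8.85% with array weights, and 8.71%, 1.28% and 4.53% with DESeq2. With only the control and Tc groups the share was 2.28%. Without Dox library 2 the shares were 9.11%, 1.83% and 1.48%. Without Dox library 1 they were 12.4% with Dox and 11.3% for Dox against Tc. No share is given without a fold limit, with the replicate block or for the other libraries left out. Those counts therefore cannot be set against a background. When the replicate number was a block over all 3 groups, the counts for the 10 genes were 0, 0 and 0. For the other genes they were 2, 0 and 0. That block changed no call among the 10 and ended that of Ephx1 with Dox (limma adjusted p = 0.0614). It also covered the control libraries, which paired with neither drug group. Ephx1 also lost its call at a pseudocount of 0.1, without the filter, at a mean of at least 50, with only the 2 groups, without libraries 3 and without 7 of the 9 libraries left out in turn. Depth limits Slc51b most among the 10 genes, at 5 to 30 reads per library.

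Signs that turned belonged to differences near 0 or of high spread, and the cause was not tested. Without libraries 3 in limma these were Dox against control for Cyp46a1 (−0.09) and Scp2 (−0.05), and Tc against control for Slc27a5 (0.02) and Slc51b (0.09). With array weights they were Cyp7b1 with Dox (0.62), Baat with Tc (−0.04) and, for Dox against Tc, Slc10a2 (0.10), Abcd3 (0.25), Scp2 (0.03) and Cyp7b1 (0.18). DESeq2, edgeR and DESeq2 without libraries 3 gave 0.50, 0.48 and 0.49 for Cyp7b1 with Dox, 0.11, 0.11 and 0.23 for Nr0b2 with Tc, and 0.10, 0.10 and 0.01 for Abcd3 between the drugs. For Slc51b with Tc they gave 0.10, 0.10 and 0.50. The same total per library turned Slc10a2 (0.06) and Abcd3 (0.11) between the drugs.

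For the 10 genes and the other genes named by rule, the ranges over the libraries left out that crossed 0 with Dox were −0.81 to 0.13 for Baat, −0.67 to 0.11 for Abcb11, −0.46 to 0.93 for Cyp46a1, −1.57 to 0.06 for Slc10a2, −0.38 to 1.27 for Scp2 and −2.40 to 1.05 for Cyp7b1. With Tc they were −0.04 to 0.11 for Baat, −0.15 to 0.11 for Slc27a5, −1.32 to 0.53 for Nr0b2, −0.01 to 0.22 for Slc10a1, −0.19 to 0.06 for Abcb11, −0.98 to 0.14 for Slc51b, −1.40 to 0.06 for Slc10a2 and −0.36 to 1.01 for Cyp7b1. For Dox against Tc they were −0.87 to 0.07 for Baat, −0.60 to 0.18 for Abcb11, −0.73 to 0.39 for Slc51b, −0.95 to 0.83 for Slc10a2, −0.44 to 0.44 for Abcd3, −1.15 to 0.51 for Scp2, −0.08 to 1.05 for Ephx1 and −2.65 to 0.80 for Cyp7b1. Medians by role under other settings were added after seeing the data. The Dox median for sinusoidal uptake turned from −0.64 to 0.84 in DESeq2 and 0.82 in edgeR and ranged from −0.99 to 0.18 over the libraries left out. With Tc the ranges were −0.08 to 0.32 for uptake, which turned without control library 2 or Tc library 1, and −0.01 to 0.14 for side-chain shortening and conjugation, which turned without Tc library 1.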
